A study of Mus musculus with 8 samples.

Results

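Desmosomes are adhesive discs that bind neighbouring epithelial cells together and tie the keratin filaments of one cell to those of the next. Desmogleins and desmocollins, the desmosomal cadherins, cross the membrane and bind their counterparts on the neighbouring cell. Inside the cell they hold the armadillo proteins plakoglobin and the plakophilins, and these hold desmoplakin, which reaches the keratin filaments. The epidermis, which bears constant friction, is rich in desmosomes and uses its own set of cadherins and plakophilins.

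The 10 desmosome genes described here (Dsg1a, Dsg1b, Dsg3, Dsc1, Dsc3, Pkp1, Pkp3, Jup, Dsp and Perp) were looked up by symbol among 28944 probe sets, taking those annotated with exactly 1 gene. Of the 10 genes, 8 were measured, each by 1 probe set. Dsg1a lies only on a probe set shared with Dsg1b and Dsg1c, which was not used, and Dsc1 is not named among the probe sets analysed here. The Dsg1 genes are close copies of each other, so the signal of the Dsg1b probe set is uncertain as to which copy gave it.

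RNA came from excised paws of male DBA1J mice, 8-10 weeks old, on 8 Affymetrix Mouse Gene 1.0 ST arrays, 2 for each of 4 groups. Every group was injected with complete Freund adjuvant and boosted with incomplete Freund adjuvant at week 3, so none is an untreated control. The adjuvant group received nothing else, and the adjuvant+MLIF group also received MLIF, the monocyte locomotion inhibitory factor, a pentapeptide of the amoeba Entamoeba histolytica, nasally every week. The CIA (collagen-induced arthritis) group received 150 µg of chicken type II collagen in the adjuvant, and the CIA+MLIF group received the collagen and the peptide. How many weeks the peptide was given is labelled for the adjuvant+MLIF group only. Sample labels put collection 4 weeks after the booster and the series text puts it before. The labels name biological replicates but not whether an array held RNA of 1 of the 8 mice per group or of several, so p-values measure the spread between arrays.

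Values are deposited log2 signals, and 1 unit is a doubling. Levels of different probe sets were not compared, since each probe set has its own response. Across all probe sets the arrays' medians lay between 7.07 and 7.10, except CIA replicate 1 at 6.66, and the table's control entries had medians of 6.29-6.44 and, on that array, 5.88. The control entries' 95th percentile was 9.90-10.12, so a signal above their median is not by itself a detected one. The adjuvant+MLIF replicates were the closest pair, with an SD of their differences of 0.094 against 0.21-0.32 in the other groups. The median probe set was 0.25 lower in CIA than in adjuvant and 0.24 higher in CIA+MLIF than in CIA, and quantile normalization brought both medians to within 0.02 of 0. With it, the share of called probe sets that were higher went from 23.3% to 51.4% in CIA against adjuvant and from 77.9% to 46.8% in CIA+MLIF against CIA, and with array centring to 48.6% and 49.8%. Joint tissue was present on all arrays by its defining markers: Prg4, the lubricin of synovium and cartilage surface, had a signal of 12.7-13.0, and Comp, a cartilage matrix protein, 11.9-12.1.

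RefSeq promoter sequences are shown for 2 of the 10 genes, Dsp and Jup. Genes on the chromosome that carries the desmosomal cadherins were left out of the promoter search. The promoter set used held no sequence for Pkp1, Pkp3 or Perp. The changes of Dsp and Jup in CIA against adjuvant were 4.27 and 0.52 on the log2 scale. For each, the 200 bases before the outermost annotated start are given 5′ to 3′ on the strand of the gene (GRCm38.p6). Dsp lies on the plus strand with this window at chr13:38151094-38151293, and Jup on the minus strand at chr11:100397840-100398039. Capitals mark matches on either strand to the GC box GGGCGG or to CCAAT.
Dsp: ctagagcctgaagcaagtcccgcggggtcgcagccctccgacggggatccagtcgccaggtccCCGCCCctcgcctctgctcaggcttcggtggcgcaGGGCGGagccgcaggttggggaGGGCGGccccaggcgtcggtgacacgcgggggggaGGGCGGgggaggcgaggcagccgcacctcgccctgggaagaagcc
Jup: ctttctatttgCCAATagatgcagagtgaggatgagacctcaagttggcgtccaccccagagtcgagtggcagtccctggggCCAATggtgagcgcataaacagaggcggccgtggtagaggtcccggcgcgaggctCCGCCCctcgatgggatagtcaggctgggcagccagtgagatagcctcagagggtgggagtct
The Dsp window held 4 GC boxes and no CCAAT, with 75.5% G and C and 21 CpG dinucleotides. In the Jup window there were 1 GC box and 2 CCAAT matches, with 60.5% G and C and 10 CpG. For the background, 200 bases were taken from the first promoter listed for each of 27025 genes, which need not end at the outermost start. Over these windows the medians were 53% and 5, and 31.3% held a GC box and 30.0% a CCAAT. Neither window held TATAAA, found in 10.6% of all windows, the AP-1 motif TGANTCA, in 5.55%, or the grainyhead motif AACCGGTT, in 0.0888%. These matches are descriptions of the letters and not of factor binding.

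Most of the measured members had higher signals after collagen immunisation without peptide. In CIA against adjuvant 7 of the 8 measured genes rose and 0 fell, where 4.30% of all probe sets were higher and 14.2% lower at the same threshold, an adjusted p under 0.05. Dsp rose 19.3-fold and stood at rank 20 of 28944 probe sets ordered by change, from adjuvant signals just above the control entries' median. Perp rose 21.5-fold, at rank 19, from adjuvant signals level with that median. Dsc3 was at least 8.86-fold higher, counted from that median, which its adjuvant signals did not exceed. Jup did not pass. The members' median change was 2.96, against -0.25 over all probe sets, and 2.75 with Dsg1b, Dsg3 and Dsc3 counted from the control entries' median. For each of the 8 genes both CIA arrays lay above both adjuvant arrays, as they did for 12.5% of all probe sets, while 44.7% lay below. A higher or lower signal in bulk tissue can mean more or fewer cells of a type in the sample, or more or less RNA per cell. The arrays cannot tell these apart.

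**Figure D1:**
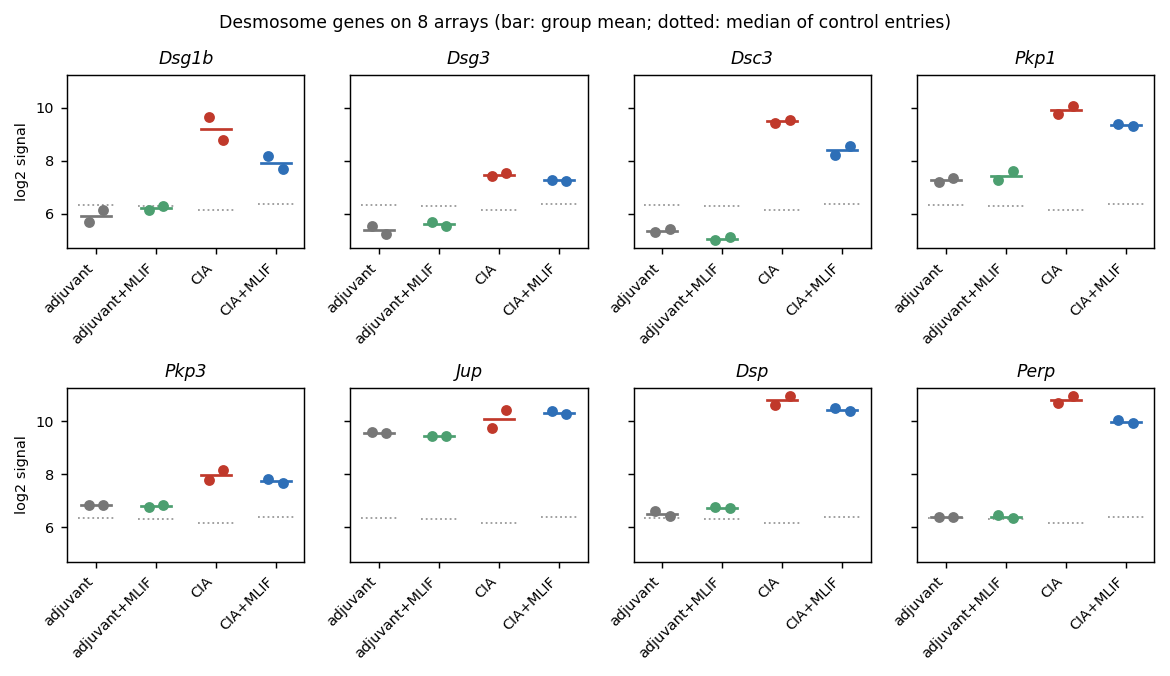
Log2 signal of the 8 measured desmosome genes, 1 panel per gene, on each of the 8 arrays by group; points are arrays, bars are group means of 2 arrays and dotted lines mark the median of the table's control entries. The adjuvant and adjuvant+MLIF points lie below both collagen groups in every panel, and Dsg1b, Dsc3 and Perp are lower in CIA+MLIF than in CIA.

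Among the cadherins, Dsc3, the desmocollin of the basal and lower layers of the epidermis, gave the clearest steps. Its signals were 5.32 and 5.43 in adjuvant, 5.00 and 5.13 in adjuvant+MLIF, 9.44 and 9.54 in CIA, and 8.24 and 8.56 in CIA+MLIF. The groups did not overlap: both collagen groups were high, with CIA+MLIF between CIA and the adjuvant groups. Dsc3 rose by 4.12 ± 0.16 (SE; adjusted p = 7.08e-07) in CIA against adjuvant. Its adjuvant signals were not above the control entries' median, and counted from that median the difference was 3.15, or 8.86-fold.

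Dsg3, a desmoglein of the lower epidermal layers and the antigen of pemphigus vulgaris, was 5.54 and 5.25 in adjuvant, 5.69 and 5.54 in adjuvant+MLIF, 7.42 and 7.55 in CIA, and 7.29 and 7.25 in CIA+MLIF. Both collagen groups were high and close to each other, and the 2 groups without collagen met at 5.54. The rise in CIA against adjuvant was 2.09 ± 0.16 (SE; adjusted p = 3.49e-05). With the control entries' median, which its adjuvant arrays did not exceed, in place of the adjuvant level it was 1.14, or 2.20-fold.

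Dsg1b belongs to the desmoglein 1 genes, which serve the upper, differentiated layers. Its probe set gave 5.69 and 6.14 in adjuvant, 6.16 and 6.30 in adjuvant+MLIF, 9.65 and 8.78 in CIA, and 8.20 and 7.68 in CIA+MLIF. It had the widest replicate spread of the members in CIA, with an SD of 0.62 (n = 2), but no array of a collagen group reached down to an adjuvant array. Dsg1b rose by 3.30 ± 0.30 (SE; adjusted p = 9.47e-05), and counted from the control entries' median, which its adjuvant arrays did not exceed either, by 2.87, or 7.33-fold.

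Among the armadillo proteins, plakophilin 1, encoded by Pkp1, stabilises desmosomes in the upper epidermis, and its loss in people causes skin fragility. Pkp1 gave 7.22 and 7.35 in adjuvant, 7.27 and 7.60 in adjuvant+MLIF, 9.77 and 10.05 in CIA, and 9.40 and 9.31 in CIA+MLIF. It rose 6.17-fold, by 2.62 ± 0.17 (SE; adjusted p = 1.77e-05), with the collagen groups apart from the groups without collagen.

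Plakophilin 3 is found in most layers of the epidermis and in many simple epithelia. Its gene Pkp3 had signals of 6.86 and 6.82 in adjuvant, 6.75 and 6.83 in adjuvant+MLIF, 7.78 and 8.15 in CIA, and 7.82 and 7.66 in CIA+MLIF. The 2 collagen groups overlapped and lay above the others. Pkp3 rose by 1.12 ± 0.17 (SE; adjusted p = 0.00175), or 2.18-fold, the smallest change among the 7 that passed.

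Plakoglobin, encoded by Jup, is shared by desmosomes and adherens junctions and so is also made by non-epithelial cells such as endothelium. Jup gave 9.58 and 9.55 in adjuvant, 9.42 and 9.43 in adjuvant+MLIF, 9.75 and 10.41 in CIA, and 10.38 and 10.25 in CIA+MLIF. Its 2 CIA arrays were far apart, and the lower one was CIA replicate 1, the array with the lower median over all probe sets. The difference in CIA against adjuvant was 0.52 ± 0.21 (SE; 95% interval 0.043 to 0.99; adjusted p = 0.116). It passed with quantile normalization, at 0.67 (adjusted p = 0.0154), with array centring, at 0.73 (adjusted p = 0.00211), and without CIA replicate 1, at 0.85 (adjusted p = 0.00178).

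Desmoplakin, the plakin that joins the plaque to keratin, is needed in every desmosome. Dsp gave 6.59 and 6.44 in adjuvant, 6.75 and 6.72 in adjuvant+MLIF, 10.62 and 10.96 in CIA, and 10.51 and 10.36 in CIA+MLIF. All 4 collagen arrays were high, and the CIA+MLIF arrays lay just below the CIA arrays. Dsp rose by 4.27 ± 0.17 (SE; adjusted p = 7.08e-07), from adjuvant signals just above the control entries' medians of 6.39 and 6.29.

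Perp is a tetraspan membrane protein, a target of p63 in stratified epithelia, and is needed for desmosome assembly there. Perp signals were 6.38 and 6.39 in adjuvant, 6.45 and 6.33 in adjuvant+MLIF, 10.67 and 10.95 in CIA, and 10.04 and 9.92 in CIA+MLIF. Without collagen it sat level with the control entries' median, and the 3 levels (no collagen, CIA+MLIF, CIA) were apart. Perp rose by 4.42 ± 0.15 (SE; adjusted p = 7.08e-07) in CIA against adjuvant.

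**Figure D2:**
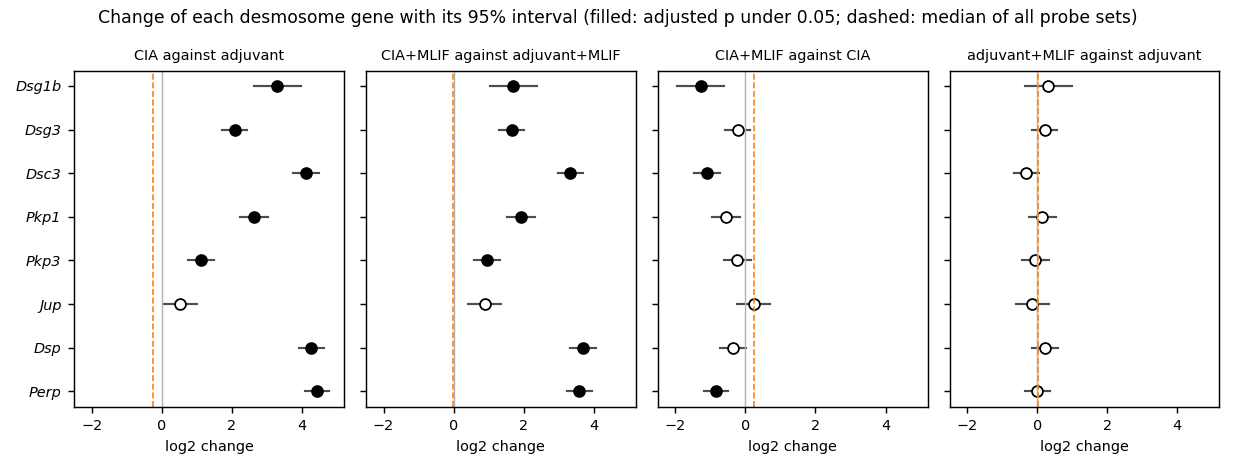
Log2 change of each measured desmosome gene (points) with its 95% interval from limma (bars) in 4 comparisons; filled points have an adjusted p under 0.05 and the dashed line is the median of all probe sets. In CIA against adjuvant the points run from 0.52 for Jup to 4.42 for Perp, and in adjuvant+MLIF against adjuvant they lie between -0.31 and 0.32.

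In collagen-immunised mice the peptide went with a lower signal of part of the desmosome. In CIA+MLIF against CIA 3 of 8 genes fell and 0 rose, where 3.25% of all probe sets were lower and 11.5% higher. Dsg1b fell by 1.28 ± 0.30 (SE; adjusted p = 0.0213), Dsc3 fell by 1.09 ± 0.16 (SE; adjusted p = 0.00236) and Perp fell by 0.83 ± 0.15 (SE; adjusted p = 0.00768). The 3 genes that fell are a cadherin of the upper layers, a cadherin of the lower layers and the tetraspan protein.

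Pkp1 at -0.55 (adjusted p = 0.0636), Dsp at -0.35 (adjusted p = 0.172), Pkp3 at -0.23 (adjusted p = 0.356), Dsg3 at -0.22 (adjusted p = 0.353) and Jup at 0.23 (adjusted p = 0.449) did not pass. Both CIA+MLIF arrays lay below both CIA arrays for 6 genes, as for 10.9% of all probe sets (40.7% lay above), and the arrays of Pkp3 and Jup overlapped. The members' median change was -0.45, against 0.24 over all probe sets. With quantile normalization 3771 of all probe sets were called lower and with array centring 3505, against 942 in the main fit. The count of members was 5 with quantile normalization, 6 with array centring and 0 with array weights. It was 5 without CIA replicate 1, with Dsg1b then at -0.84 (adjusted p = 0.0605), and 1 without CIA+MLIF replicate 2. The Jup difference was -0.10 without CIA replicate 1 and 0.57 without CIA replicate 2. The median of all probe sets was 0.03 and 0.43 in these fits.

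Where no collagen was given, the peptide left no called difference. In adjuvant+MLIF against adjuvant the changes of the 8 genes ran from -0.31 for Dsc3 to 0.32 for Dsg1b, and limma called 0 of 8, as it called 0.00% of all probe sets in either direction. Of the 8 genes, 0 had an unadjusted p under 0.05, and the share of all probe sets at that threshold was not counted. Arrays of the groups were apart upwards for 3 genes and downwards for 2, where 31.7% and 23.0% of all probe sets were.

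The test of whether the peptide's difference depended on collagen, the interaction in the same fit, called 0 of 8 genes at the adjusted threshold, where 1.62% of all probe sets were called lower and 5.62% higher. At an unadjusted p under 0.05 it held 5 of 8, and the share of all probe sets at that threshold was not counted. The lowest adjusted p-values were 0.0534 for Perp, with an interaction of -0.84 ± 0.22 (SE), and 0.0552 for Dsg1b, with -1.59 ± 0.42 (SE), while Dsc3 had -0.78 (adjusted p = 0.0775). Without collagen Dsg1b and Dsc3 were not above the control entries' median, and Perp was level with it. A fall with the peptide could hardly show there. Over all probe sets 2544 were called lower with quantile normalization and 2352 with array centring, against 469 in the main fit. The count of members was 4 with quantile normalization, 5 with array centring, 3 without the probe sets of lowest signal and 2 with a trended, robust variance. Without the probe sets of lowest signal 2359 were called in either direction, and with the trended variance 2527, against 2095 in the main fit. The members' median interaction was -0.79 without CIA replicate 1 and -0.48 without CIA replicate 2, with Jup then at 0.70. Over all probe sets the median was 0.003 and 0.40 in these fits.

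In peptide-treated mice the collagen difference stood in most of the desmosome. In CIA+MLIF against adjuvant+MLIF 7 of 8 genes were higher and 0 lower, where 0.712% of all probe sets were higher and 0.0173% lower. Dsp rose by 3.70, Perp by 3.59, Dsc3 by 3.33, Pkp1 by 1.92, Dsg1b by 1.71, Dsg3 by 1.65 and Pkp3 by 0.95, with adjusted p-values from 5.18e-06 for Perp to 0.0421 for Pkp3. Dsc3, Dsg1b and Dsg3 were not above the control entries' median in adjuvant+MLIF, and counted from it they were at least 2.10, 1.64 and 0.96 higher. Jup was 0.88 higher (adjusted p = 0.222). The arrays were apart upwards for 8 of 8 genes, and for 21.0% of all probe sets, with 32.2% apart downwards.

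The calls of Dsg1b and Pkp3 in that comparison, at adjusted p-values of 0.0402 and 0.0421, were lost in 11 and 9 of 17 alternatives. With the close adjuvant+MLIF arrays averaged to 1 array their adjusted p-values were 0.143 and 0.496. Against the adjuvant group without peptide, 6 of 8 genes were higher in CIA+MLIF, where 0.688% of all probe sets were higher and 0.145% lower. The arrays were again apart upwards for 8 of 8 genes, where 16.4% of all probe sets were and 19.6% were apart downwards. Pkp3, at 0.90 (adjusted p = 0.0521), and Jup, at 0.75 (adjusted p = 0.412), did not pass there. This comparison shares its CIA+MLIF arrays with the preceding one.

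**Figure D3:**
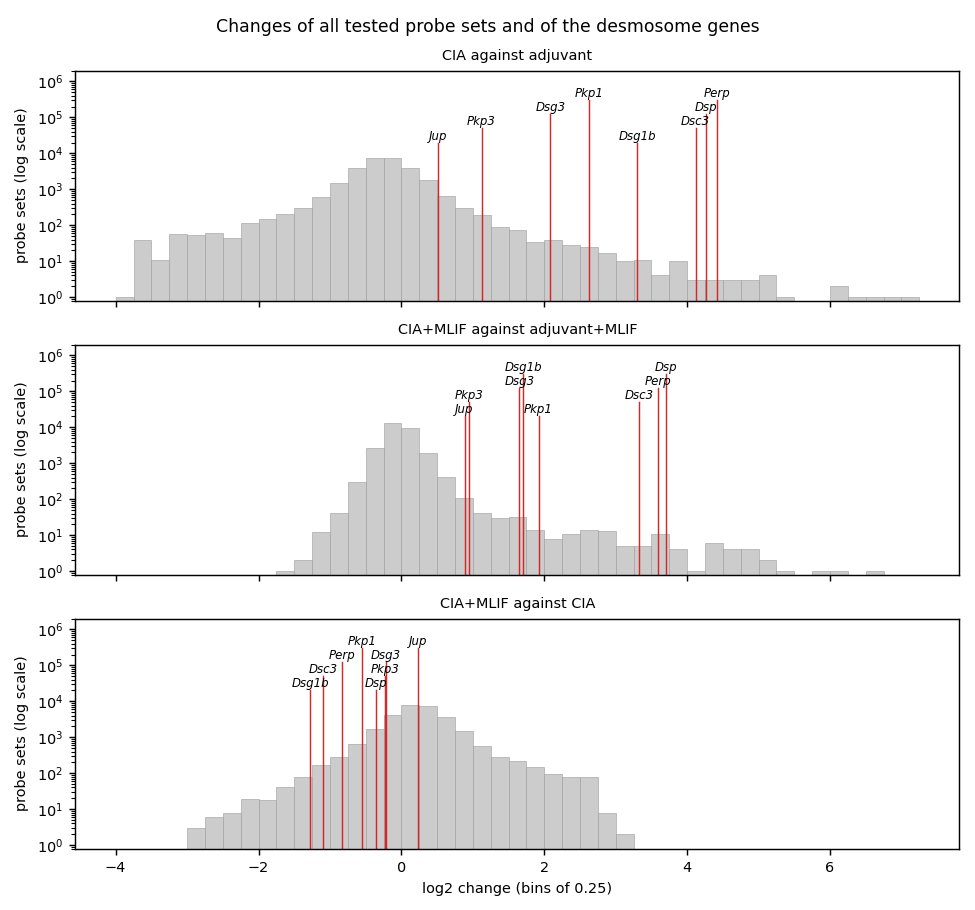
Histograms of log2 changes of all 28944 probe sets, in bins of 0.25 on a log count axis, in 3 comparisons; red lines mark the 8 measured desmosome genes and their height carries no value. In CIA against adjuvant most probe sets lie near the median of -0.25 and the lines for Dsc3, Dsp and Perp stand at 4.12, 4.27 and 4.42, while in CIA+MLIF against CIA all lines but that of Jup lie below 0.

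The other desmosomal genes formed a list of 5. Dsg2, Dsc2 and Pkp2 encode the isoforms of simple epithelia and heart, Dsg4 the desmoglein of hair and upper epidermis, and Dsg1c a copy of desmoglein 1. In CIA against adjuvant 1 of these 5 passed: Dsg4 rose by 0.92 (adjusted p = 0.0182), while Dsc2 was at 0.40, Dsg2 at 0.34, Dsg1c at 0.13 and Pkp2 at -0.53. Dsg4 was not above the control entries' median in adjuvant, and counted from it the difference was 0.03. Dsg4 also rose in CIA+MLIF against CIA, by 0.77 (adjusted p = 0.0428), the comparison in which Dsg1b fell.

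The desmosomal cadherin genes lie side by side in the genome, in the order Dsc3, Dsc2, Dsc1, Dsg1c, Dsg1a, Dsg1b, Dsg4, Dsg3 and Dsg2 among protein-coding neighbours. Dsc3, at one end, was 4.12 higher in CIA than in adjuvant beside Dsc2 at 0.40 (adjusted p = 0.225). Dsg3 was 2.09 higher between Dsg4 at 0.92 and Dsg2, at the other end, at 0.34 (adjusted p = 0.243). Dsg1c and Dsg2 were above the control entries' median on 0 of 8 arrays and Dsc2 on 1, so their values lie between signals at background and do not show whether these genes changed. In peptide-treated mice the values in the same order were 3.33 for Dsc3, 0.45 for Dsc2, 0.52 for Dsg1c, 1.71 for Dsg1b, 1.60 for Dsg4, 1.65 for Dsg3 and 0.38 for Dsg2, as fitted.

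**Figure D4:**
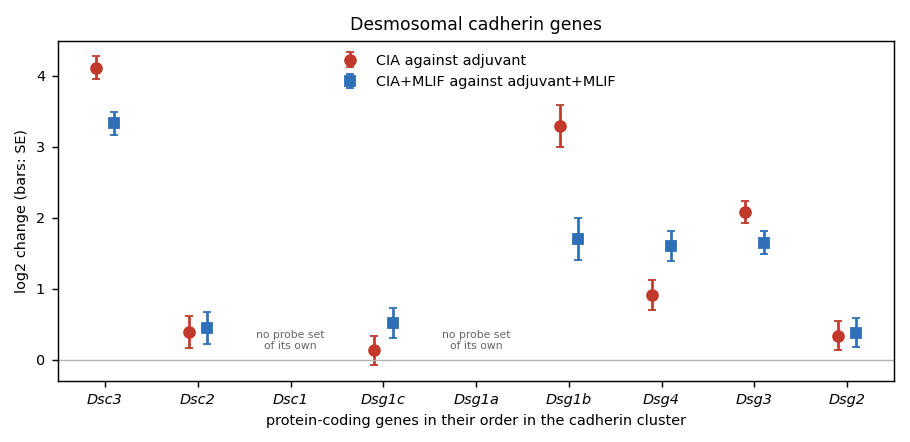
Log2 change of the desmosomal cadherin genes in their genomic order, not to scale, in CIA against adjuvant and in CIA+MLIF against adjuvant+MLIF; bars through the points are 1 standard error from limma, and Dsc1 and Dsg1a have no value. The fitted values of Dsc3, Dsg1b and Dsg3 in CIA against adjuvant stand at 4.12, 3.30 and 2.09, and those of Dsc2, Dsg1c and Dsg2, whose signals lie at background, between 0.13 and 0.40.

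Of the keratins that desmosomes anchor, listed with the plakins, 12 of 14 rose in CIA against adjuvant and 1, the plakin gene Dst, fell. Krt1 and Krt2, keratins of the suprabasal epidermis, had the largest changes, 7.23 and 6.86, and the envelope plakins Evpl, at 0.61, and Ppl, at 0.00, the smallest. Counted from the control entries' median, which their adjuvant arrays did not exceed, Krt1 and Krt2 were 6.69 and 5.90 higher. In CIA+MLIF against CIA 4 of 14 rose and 5 fell, and 10 of 14 were higher in CIA+MLIF than in adjuvant+MLIF.

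Corneodesmosomes are the modified desmosomes of the cornified layer, cut by skin proteases when cells are shed. Of the 10 genes listed for them and their processing, 9 rose and 0 fell in CIA against adjuvant. Spink5, the inhibitor that restrains the skin kallikreins, was 3.95 higher and Tgm3, an envelope crosslinking enzyme, 2.95. Spink5 was 3.31 higher counted from the control entries' median. The protease genes St14, at 0.97, and Klk14, at 0.00, had the smallest values. In CIA+MLIF against CIA 5 of the 10 fell and 1 rose.

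The lists of other cell junctions gave fewer calls. Of 10 adherens junction genes 3 rose in CIA against adjuvant, with E-cadherin, Cdh1, at 1.73, Nectin4 at 1.12, Nectin2 at 0.02 and vinculin, Vcl, at -0.09. Of 9 measured tight junction genes 2 rose, and Cldn4 at 1.62 and occludin, Ocln, at 0.65 had the largest values, while F11r was at 0.18 and Marveld2 at 0.16. The lists' medians were 0.14 and 0.21, against 2.96 for the desmosome members and -0.25 over all probe sets. The difference between the lists was not tested.

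Of 9 measured transcription factors of the epidermis 5 rose in CIA against adjuvant and 0 fell. Zfp750, which drives terminal differentiation, was 1.69 higher and Ovol1 1.49 higher, while the grainyhead factor Grhl2 was at 0.29 and Klf4 at 0.07. In CIA+MLIF against CIA 3 of these 9 fell and 0 rose.

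**Figure D5:**
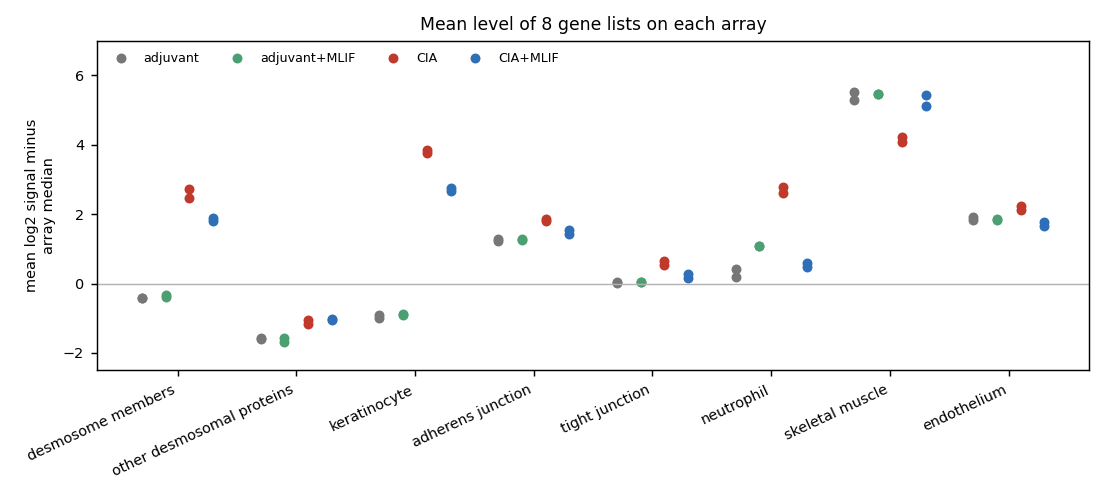
Mean log2 signal of 8 gene lists minus the median of all probe sets on the same array; each point is 1 of the 8 arrays, coloured by group. The desmosome members and the keratinocyte markers are low without collagen, high in CIA (2.48 to 2.73 and 3.76 to 3.86) and between these levels in CIA+MLIF, whereas the neutrophil markers are at 0.49 to 0.59 in CIA+MLIF.

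Markers of the cells that carry desmosomes moved with the members. Of 10 keratinocyte markers 9 rose in CIA against adjuvant and 0 fell, 7 fell in CIA+MLIF against CIA, and 8 rose in CIA+MLIF against adjuvant+MLIF. Their mean signal minus the array's median was -0.99 and -0.90 in adjuvant, -0.90 and -0.89 in adjuvant+MLIF, 3.76 to 3.86 in CIA and 2.67 to 2.76 in CIA+MLIF. On the same scale the desmosome members stood at -0.43 and -0.41, -0.39 and -0.34, 2.48 to 2.73, and 1.80 to 1.88. In the adjuvant group 5 of the 10 keratinocyte markers, and in adjuvant+MLIF 6, were not above the control entries' median on either array, against 0 in CIA and 1 in CIA+MLIF. Over all probe sets 4.30% rose in CIA against adjuvant, 3.25% fell in CIA+MLIF against CIA and 0.712% rose in CIA+MLIF against adjuvant+MLIF. The markers Krt1, Krt2, Krt5, Krt10 and Krt14 are also in the keratin list and Trp63 in that of transcription factors, so the lists' counts are not independent. The part of keratinocyte RNA, or of the share of skin in each sample, in the desmosome results was not tested.

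Other markers moved as well. Of 11 measured genes of hair follicle and nail 8 rose in CIA against adjuvant, and 2 rose and 5 fell in CIA+MLIF against CIA. Their mean minus the array's median was -1.11 to -0.99 in adjuvant, -1.02 to -1.01 in adjuvant+MLIF, 0.22 to 0.47 in CIA and -0.34 in CIA+MLIF. In CIA against adjuvant 2 of 8 markers of glandular and simple epithelium rose. For melanocytes 0 of 5, for Langerhans cells 0 of 3, for endothelium 0 of 8 and for cartilage 0 of 6 were called by limma in that comparison. Of 6 adipocyte markers 5 fell in CIA against adjuvant and 3 rose in CIA+MLIF against CIA, with a mean minus the array's median of 2.36 to 2.54 in adjuvant, 2.31 in adjuvant+MLIF, 1.46 to 1.56 in CIA and 2.21 to 2.46 in CIA+MLIF. Of 8 markers of synovial and dermal fibroblasts 4 rose and 1 fell in CIA against adjuvant, and 1 rose and 4 fell in CIA+MLIF against CIA, at 3.97 to 4.09, 4.10, 4.48 to 4.68 and 3.85 to 4.06 in the same order of groups. All 10 muscle markers fell in CIA against adjuvant and all 10 rose in CIA+MLIF against CIA, with a mean minus the array's median of 5.28 to 5.51 in adjuvant, 5.46 in adjuvant+MLIF, 4.09 to 4.23 in CIA and 5.11 to 5.44 in CIA+MLIF. All 8 neutrophil markers rose and then fell in the same comparisons, at 0.19 to 0.41 in adjuvant, 1.08 in adjuvant+MLIF, 2.62 to 2.78 in CIA and 0.49 to 0.59 in CIA+MLIF, so that in CIA+MLIF they were nearer to the adjuvant level than to the CIA level, while the desmosome members were nearer to the CIA level. The part of these cells in the desmosome results was not tested.

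Within the members, likeness over the 8 arrays was closest for Perp, with a Pearson correlation of 0.999 with the mean of the other members, and then Pkp1 at 0.996 and Dsp at 0.993. Dsc3 at 0.991, Dsg3 at 0.989 and Pkp3 at 0.985 followed, and Dsg1b at 0.94 and Jup at 0.834 were the least alike. These values are descriptions, because the arrays fall into 2 clusters, with and without collagen, and any gene that separates them correlates.

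The non-member genes most like the members' mean were Lor, which encodes the cornified envelope protein loricrin, at 0.9997, and Trim29 at 0.9995. Gm11559 at 0.999, Kprp at 0.9984, Calm4 at 0.998, the skin protease gene Asprv1 at 0.9976, Gm94 at 0.9975 and the lipid enzyme gene Pnpla1 at 0.9973 came next. Lor rose by 6.12 in CIA against adjuvant, or by 5.28 counted from the control entries' median, and fell by 1.16 in CIA+MLIF against CIA.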

How the data were processed

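The 8 columns of log2 signal, 1 value per probe set and array, were used as deposited by the authors. That they are log2 was read from their range, and how they were background-corrected, summarised and normalized is not given in the sources used here. The first 6613 of 35557 entries, which carry no annotation, were taken as array controls and set the background level given for weak probe sets. For the other 28944, limma 3.58.1 (R 4.3.3) fitted 4 group means to all 8 arrays, with 6 contrasts and Benjamini-Hochberg adjustment over all 28944. An adjusted p under 0.05 counted as called, and p-values are two-sided. The fit had 4 residual and 4.96 prior degrees of freedom, and was tested on simulated data.

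The members and lists were chosen with earlier results of these data known, so no test was made on a list as a whole. All members are named. Of each related gene list the 2 largest and the 2 smallest changes in CIA against adjuvant are named (all of a list of 5), and the 8 genes most correlated with the members' mean. Dst and the Prg4 and Comp levels were singled out after their values were seen. Promoters came from RefSeq. Alternatives were quantile normalization, array centring, a filter on low signal, array weights, a trended, robust variance, a fit without the other groups, a replicate block, averaged adjuvant+MLIF arrays, a threshold of 0.01 and leaving out each array. Figures used Python 3.11.15 with Matplotlib 3.10.9.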

Additional observations from a re-analysis of the deposited data

Results flagged for a closer look

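None of the desmosome members stood out by the rules for a closer look. Among the named genes of the related lists, the interaction term in limma was called for 3 genes. The interaction was -1.78 for Krt2 (adjusted p = 0.00109), -1.48 for Spink5 (adjusted p = 0.0131) and -0.93 for Cdh1 (adjusted p = 0.0347), each lower with the peptide in collagen-immunised mice than its difference in adjuvant mice would give. Lor, among the genes most like the members, was at -1.20 (adjusted p = 0.0203). Krt2, Spink5 and Lor were not above the control entries' median on any array without collagen, while Cdh1 was. A fall with the peptide could hardly show there for Krt2, Spink5 and Lor, so their interactions do not show a dependence on collagen. Over the full lists the interaction was called lower for 5 of 14 keratin and plakin genes and higher for 1. It was called lower for 3 of 10 corneodesmosome genes and 1 of 10 adherens junction genes. Over all probe sets 1.62% were called lower and 5.62% higher.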

How the results depend on the processing

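The alternative that averages probe sets per gene was not run, since each measured member has 1 probe set. Where a member was called, no alternative gave it the opposite sign. In CIA against adjuvant 7 or 8 members were called under every alternative, and their median change was 3.16 with quantile normalization, 3.18 with array centring and 2.81 to 3.11 with 1 array left out. In CIA+MLIF against CIA the count of 3 became 5 with quantile normalization, 6 with array centring and 0 with array weights, all lower. The median was -0.56 with quantile normalization, -0.68 with array centring and -0.61 to -0.30 with 1 array left out. The interaction count of 0 became 4 with quantile normalization, 5 with array centring, 3 without the lowest tercile and 2 with a trended and robust variance, all lower. Its median was -0.74 with quantile normalization, -0.86 with array centring and -0.79 to -0.48 with 1 array left out. Without CIA replicate 2 Jup was higher, at 0.57 in CIA+MLIF against CIA and 0.70 in the interaction. With 1 array left out the median ran from 1.74 to 1.96 in CIA+MLIF against adjuvant+MLIF and from 1.94 to 2.20 in CIA+MLIF against adjuvant. In CIA+MLIF against CIA and in the interaction, the probe sets called lower also rose in number with quantile normalization and array centring. The cause of these shifts was not tested. Whether the replicate numbers pair arrays across groups is not given by the labels. Correlations of deviations ran from -0.11 to 0.39, the highest between CIA+MLIF and adjuvant, and with 2 arrays per group they cannot settle it. With a replicate block 5 members instead of 7 were called in CIA+MLIF against adjuvant+MLIF. Dsg1b and Pkp3 were lost at adjusted p-values of 0.0617 and 0.0743, and the counts of the other comparisons were those without the block. Over all probe sets, CIA against adjuvant called 5353 and between 1987 (array weights) and 17706 (without CIA replicate 2). CIA+MLIF against CIA called 4257 and between 1261 and 17353 with the same settings. CIA+MLIF against adjuvant+MLIF called 211 and from 128 to 660, CIA+MLIF against adjuvant 241 and from 124 to 450, and the interaction 2095 and from 1050 to 13063. In adjuvant+MLIF against adjuvant the 0 calls became up to 1440 with array weights. With 2 arrays per group, and Dsg1b, Dsg3 and Dsc3 not above the control entries in the groups without collagen, small changes of low signals were not detectable.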
